A study of Homo sapiens with 29 samples.

Results

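Extracellular matrix and cell adhesion genes made up 98 of the 4592 long protein-coding genes in which the release of RNA polymerase II (Pol II) was followed in control and THOC5-depleted cells. They were chosen by current gene symbol alone, from names that belong to collagens, laminins, integrins, cadherins, protocadherins, the ADAM, ADAMTS and MMP proteases, semaphorins, fibrillins and latent TGF-beta binding proteins (LTBP), and a few further glycoproteins such as fibronectin and tenascin. No measured value entered this rule of names, but it was set with earlier results of these data known. The collagens were the largest family with 21 members, followed by 15 integrins, 13 cadherins, 11 ADAM and 8 ADAMTS proteases, 8 further glycoproteins, 7 laminins, 7 semaphorins, 3 MMP proteases, 3 fibrillins or LTBP and 2 protocadherins. Contactins and the L1 family, which the names also allowed, had no listed gene. ITGB3BP entered through the first letters of its symbol, although it encodes a centromere protein and is not an integrin. Its values are given and marked as such. ITGBL1, a secreted protein that resembles integrin beta chains, entered the same way.

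The extracellular matrix is the protein mesh that cells secrete and stand on. Collagen IV and laminins form the sheet of the basement membrane, fibronectin and tenascin belong to the matrix between cells, and integrins are the receptors, each an alpha and a beta chain, that tie this matrix to actin inside the cell. Cadherins hold neighbouring cells together, ADAM proteases release the outer parts of membrane proteins, and ADAMTS and MMP proteases trim the matrix itself. Many of these genes are long, so Pol II needs many minutes to cross them, and a block of elongation or 3′ end processing can be followed along them.

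The cells were HEK293, a human embryonic kidney line, transduced for 4 days with lentivirus that carried either a control hairpin (shCtrl) or a hairpin against THOC5 (shTHOC5), a subunit of the THO complex that acts in mRNA processing and export. Both groups were held in 100 μM DRB, an inhibitor of the kinase that frees paused Pol II, for 3.5 h and were then released for 10, 20, 30 or 40 min. RNA made at the end of the release was marked with 1 mM 4-thiouridine and sequenced (DRB/TTchem-seq). Each group had 1 library per release time, 8 in all, with no replicates, so no p-value is given and each statement compares these libraries, not the conditions.

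For each gene the tables hold the position of the transcription wave peak at each release time, searched from 2 kb before to 120 kb after the start of the gene, 1 coverage value per series in rpm (reads scaled to a common sequencing depth), an elongation rate, and a mark for genes that passed the authors' filters. The window has the same length in every gene, but it also takes in neighbouring genes and, in short genes, sequence past the end, so coverage describes the window and not the member alone. A gene is called expressed here where its coverage was at least 100 rpm in both series, silent where it was under 10 rpm in both, and low otherwise. Read totals of the libraries are unknown. The tables have no row for THOC5, and the knockdown was not measured here. Of 14 marker genes of kidney progenitors and epithelium 5 were listed and none was expressed. The highest was PAX2, a kidney transcription factor, with 57.7 rpm in shCtrl and 12.3 rpm in shTHOC5. Of 11 fibroblast markers 4 were listed, with 24.0 rpm in sum in shCtrl and 16.0 rpm in shTHOC5, of 5 endothelial markers 3 were listed at 77.5 and 121 rpm in sum, and of 7 neuronal markers none was listed.

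The listed matrix and adhesion genes mostly had low coverage in these libraries, which were made after DRB release. Genes of these families that were not listed could not be read. Of the 98 members 17 were expressed (17.3%, against 50.0% of all listed genes), 58 were low (59.2%, against 40.8%) and 23 were silent (23.5%, against 9.12%). In shCtrl 19 members reached 100 rpm (19.4%, 95% Wilson interval over genes 12.8% to 28.3%), where 52.7% of all listed genes did so. In shTHOC5 23 members did (23.5%, 16.2% to 32.8%), against 57.6%. The median coverage of the members was 18.3 rpm in shCtrl and 30.1 rpm in shTHOC5, and that of all listed genes was 110 and 132 rpm. These intervals describe the spread over genes only. The members were long, with a median width of 143 kb against 108 kb over all listed genes, and the medians were 109, 154 and 160 kb in expressed, low and silent members.

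Among the collagens 3 of 21 were expressed, 13 were low and 5 were silent. The 3 were COL4A1 and COL4A2, the 2 chains of the common collagen IV, and COL18A1, whose C-terminal fragment is endostatin. The other listed collagen IV chains, COL4A3, COL4A4, COL4A5 and COL4A6, were low or silent. COL4A2 was the highest collagen, with 576 rpm in shCtrl and 511 rpm in shTHOC5. Fibrillar COL5A1 stood at 23.6 and 16.3 rpm and COL5A2 at 2.51 and 5.44 rpm.

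Laminins are trimers of an alpha, a beta and a gamma chain, and 3 of the 7 listed chains were expressed and 4 low. LAMC1, the gamma chain of most laminins, was the highest, with 517 rpm in shCtrl and 296 rpm in shTHOC5. LAMB1, a beta chain, stood at 219 and 239 rpm and LAMC3 at 209 and 169 rpm. No listed alpha chain was expressed in both series, the highest in shCtrl being LAMA1 with 55.4 rpm there and 35.6 rpm in shTHOC5.

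Among the integrins ITGAE, the alpha chain that binds E-cadherin, had 384 rpm in shCtrl and 504 rpm in shTHOC5, and ITGB1, the beta chain shared by most matrix receptors, had 226 and 422 rpm. ITGB3BP, the centromere protein, had 178 and 226 rpm. ITGAV, the alpha chain of vitronectin receptors, had 59.2 and 164 rpm. The other listed alpha chains that pair with ITGB1 were under 100 rpm in both series. Among them were ITGA1 (88.1 and 87.3 rpm), ITGA2 (51.7 and 73.4 rpm), ITGA4 (31.0 and 50.3 rpm) and ITGA6 (27.8 and 44.2 rpm). Partner chains that were not listed could not be read.

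No listed cadherin, ADAMTS, MMP, fibrillin, LTBP or protocadherin was expressed in both series. CDH1, which encodes E-cadherin of epithelia, had the highest shCtrl value among the 13 cadherins, 66.4 rpm, and 50.5 rpm in shTHOC5, and 7 of the 13 were silent. The highest members of the other families in shCtrl were ADAMTS2, which trims procollagen, with 51.9 rpm and 45.3 rpm in shTHOC5, MMP16, a membrane-bound protease, with 31.8 and 26.4 rpm, and FBN3, a fibrillin, with 90.4 and 42.8 rpm. The ADAM proteases of the cell surface were split. ADAM9 (307 and 335 rpm), ADAM17 (303 and 326 rpm) and ADAM10 (233 and 194 rpm), which shed many receptors and ligands, were expressed, while ADAM2, ADAM7, ADAM18 and ADAM28 were silent. Of 7 semaphorins, the guidance ligands of plexins, SEMA4B (363 and 326 rpm) and SEMA6A (108 and 115 rpm) were expressed. TNC, which encodes tenascin-C, had the highest coverage of all members in both series, with 1591 rpm in shCtrl and 590 rpm in shTHOC5.

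The 3 members with the lowest coverage summed over both series were ADAM7 (2.38 and 1.01 rpm), ADAM28 (2.90 and 0.856 rpm) and MMP26 (3.05 and 0.888 rpm). The threshold of 100 rpm cut through a dense stretch of members. Just inside it lay SEMA6A and, with 120 and 126 rpm, VCAN, which encodes the proteoglycan versican. Just outside lay COL4A5 (93.5 and 111 rpm), ADAM22 (89.0 and 99.9 rpm), ITGA1, LTBP2 (84.3 and 96.5 rpm) and ITGB5 (161 and 80.8 rpm).

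The promoters of expressed members held more G and C than those of silent members. RefSeq promoters on GRCh38.p14 were found for 76 of the 98 members, 14 expressed, 49 low and 13 silent, and the 250 bases before the annotated start were read. The median GC content was 76.0% in expressed, 64.0% in low and 48.4% in silent members, against 67.2%, 63.2% and 55.4% in listed genes of the same class, and 58.0% over all 27305 promoters of the table. The median number of CpG dinucleotides in these 250 bases was 30, 14 and 7, against 23, 18 and 8 in listed genes of the same class, and 11 over all promoters. A promoter with over 55% GC and a CpG ratio (observed over expected from its C and G content) over 0.65 was counted as CpG-rich. This held for 11 of 14 expressed members (78.6%), 19 of 49 low members (38.8%) and 6 of 13 silent members (46.2%), against 76.2%, 55.1% and 36.2% of listed genes of the same class and 39.5% of all promoters. Restricted to the 67 promoters within 1 kb of the gene start, the median number of CpGs was 29.5 in 10 expressed and 12.5 in 12 silent members, and the median GC content was 73.0% and 54.8%. The motif GGGCGG, which is the core of the Sp1 box and itself holds a CpG, was found on either strand in 13 of 14 expressed (92.9%), 24 of 49 low (49.0%) and 5 of 13 silent members (38.5%). It was found in 71.8%, 57.5% and 37.7% of listed genes of the same class and in 42.3% of all promoters. GC content and this motif thus fell from expressed to silent genes among all listed genes too. TATAAA was found in 0 of 14, 2 of 49 and 2 of 13, against 4.16%, 8.22% and 9.75% of listed genes of the same class and 11.1% of all promoters. CCAAT was found in 3 of 14, 14 of 49 and 6 of 13, against 34.2%, 28.4% and 28.6% of listed genes of the same class and 33.0% of all promoters. A match describes the letters only and is not a bound site.

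Printed here are the 120 bases just before the RefSeq start of 7 members, 5′ to 3′ on the strand of the gene, with each CpG in capitals. They were chosen after the values were seen to show 2 expressed members, 3 members whose coverage was several times higher in shTHOC5, 1 whose coverage was lower there, and 1 silent member.
LAMC1 (expressed, chr1:183023300-183023419, plus strand): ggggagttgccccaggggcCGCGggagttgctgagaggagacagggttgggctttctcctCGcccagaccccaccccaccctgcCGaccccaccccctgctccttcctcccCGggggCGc
COL18A1 (expressed, chr21:45405045-45405164, plus strand): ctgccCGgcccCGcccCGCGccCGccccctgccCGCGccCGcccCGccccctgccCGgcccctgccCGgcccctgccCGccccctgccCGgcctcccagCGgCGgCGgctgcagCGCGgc
CDH2 (higher in shTHOC5, chr18:28177131-28177250, minus strand): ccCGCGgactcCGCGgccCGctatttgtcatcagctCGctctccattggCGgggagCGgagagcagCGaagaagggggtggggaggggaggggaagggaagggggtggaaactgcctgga
SEMA3C (higher in shTHOC5, chr7:80922390-80922509, minus strand): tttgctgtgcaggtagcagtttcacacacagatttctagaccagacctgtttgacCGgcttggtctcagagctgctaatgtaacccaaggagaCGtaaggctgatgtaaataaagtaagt
PCDH17 (higher in shTHOC5, chr13:57631624-57631743, plus strand): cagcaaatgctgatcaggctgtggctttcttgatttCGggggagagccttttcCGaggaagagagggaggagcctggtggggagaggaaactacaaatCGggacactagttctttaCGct
COL26A1 (lower in shTHOC5, chr7:101362755-101362874, plus strand): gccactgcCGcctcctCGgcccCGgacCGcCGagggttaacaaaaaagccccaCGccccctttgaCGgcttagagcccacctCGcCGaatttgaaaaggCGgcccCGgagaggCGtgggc
MMP26 (silent, chr11:4704664-4704783, plus strand): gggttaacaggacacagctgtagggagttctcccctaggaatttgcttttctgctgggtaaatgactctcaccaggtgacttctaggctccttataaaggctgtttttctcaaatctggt
The stretch before COL18A1 is crowded with CpGs, 18 in 120 bases, that before SEMA3C holds 2 and that before MMP26 none, where the letters tataaa stand instead close to the start. The 3 members that were higher in shTHOC5 did not share 1 promoter type. CDH2 had 17 CpGs in its 250 bases and a GC content of 66.0%, PCDH17 had 10 and 52.8%, and SEMA3C had 2 and 36.4%.

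Coverage of most expressed members lay within 1.5-fold between the series. In bulk libraries of this kind, fewer cells that make a transcript and less new RNA per cell cannot be told apart. The median log2 ratio of coverage, shTHOC5 over shCtrl with 1 rpm added to both, was -0.15 over the 17 expressed members (95% order-statistic interval over genes -0.32 to 0.12), and 0.01 over all 2298 expressed genes. Past 1.5-fold, 4 of 17 were lower in shTHOC5 (23.5%, 95% Wilson interval 9.56% to 47.3%, where 10.3% of expressed genes were). In the other direction 1 of 17 was higher (5.88%, interval 1.05% to 27.0%, where 13.6% were). Both intervals held the share of all expressed genes.

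The 4 lower members encode secreted matrix, but so do COL4A2, COL18A1, LAMB1, LAMC3 and VCAN, which were expressed and lay within 1.5-fold. TNC went from 1591 rpm in shCtrl to 590 rpm in shTHOC5 (log2 ratio -1.43), LAMC1 from 517 to 296 rpm (-0.80), FN1, which encodes fibronectin, from 310 to 181 rpm (-0.77), and COL4A1 from 230 to 151 rpm (-0.60). The partner chain COL4A2, which starts next to COL4A1 on the other strand of chromosome 13, differed little, with a log2 ratio of -0.17. The 1 higher member was ITGB1, with 226 rpm in shCtrl and 422 rpm in shTHOC5 (0.90). ITGAE (0.39) and ITGB3BP (0.34) lay within 1.5-fold. All 8 wave peaks of FN1 lay beyond its annotated end, at 118 to 120 kb, and coverage describes the window. How much of the fall belongs to FN1 itself was not tested.

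Among the 25 members that reached 100 rpm in at least 1 series, 6 were higher (24.0%, background 20.5%) and 6 lower (24.0%, background 11.2%) past 1.5-fold. Of these 25, 6 passed only through their shTHOC5 value and 2 only through their shCtrl value, so their direction was in part set by the filter. With a mean over both series of at least 100 rpm instead, 2 of 20 were higher (10.0%, background 18.1%) and 5 were lower (25.0%, background 11.0%). The 2 higher were ITGB1 and ITGAV (59.2 to 164 rpm, log2 ratio 1.46). The 5 lower were the 4 matrix genes above and ITGB5, a beta chain that pairs with ITGAV, which went from 161 to 80.8 rpm (-0.99). The fifth largest rise under this rule, COL4A5, had a log2 ratio of only 0.24.

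**Figure D1:**
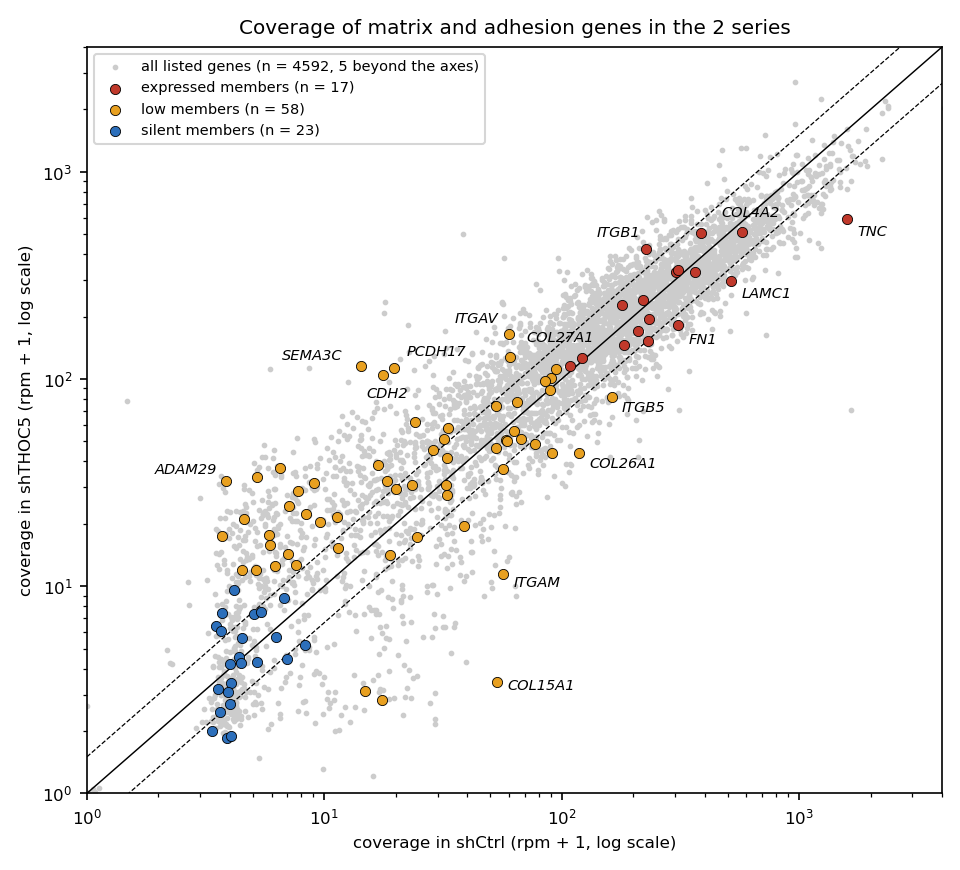
Coverage of the 98 members (coloured by class) and of all listed genes (grey, 5 beyond the axes), shCtrl on the x axis and shTHOC5 on the y axis, in rpm + 1 on log scales, with the line of equal values and dashed lines at 1.5-fold. TNC lies below the dashed band at 1591 and 590 rpm, and SEMA3C, CDH2 and PCDH17 lie above it with 104 to 114 rpm in shTHOC5.

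Members of low coverage were higher in shTHOC5 more often than lower, as other low genes were. Of the 58 low members 29 were higher past 1.5-fold (50.0%, background 45.8% of low genes) and 10 were lower (17.2%, background 16.1%). Their median log2 ratio was 0.61, and 0.49 over all low genes. These shares lie near the background and are no result about the members. Of the 23 silent members 4 were higher (17.4%, background 17.9%) and 5 lower (21.7%, background 30.5%).

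Some single low members moved by far more, and those named in this paragraph were picked after their values were seen. SEMA3C, a secreted semaphorin, had 13.3 rpm in shCtrl and 114 rpm in shTHOC5 (log2 ratio 3.01), CDH2, which encodes N-cadherin, had 16.7 and 104 rpm (2.56), and PCDH17, a protocadherin of the brain, had 18.7 and 112 rpm (2.51). COL27A1, a fibrillar collagen of cartilage, had 59.3 and 127 rpm (1.08). All 4 were below 100 rpm in shCtrl and above it in shTHOC5. In the other direction COL15A1, a basement membrane collagen, had 52.6 rpm in shCtrl and 2.45 rpm in shTHOC5 (-3.96), ITGAM, an integrin chain of leukocytes, had 55.6 and 10.4 rpm (-2.31), and COL26A1 had 117 and 42.8 rpm (-1.43). Other low members moved as far, such as ADAM29 (log2 ratio 3.07) and ADAMTS16 (-2.63). Over all low genes the log2 ratios ran from -4.55 to 5.72. Unlike CDH2, CDH1 (log2 ratio -0.39) lay within 1.5-fold. All 8 wave peaks of CDH1, a gene of 98.2 kb, lay beyond its annotated end, at 108 to 113 kb. Its coverage may thus not describe CDH1 alone, and the 2 cadherins cannot be set against each other by it.

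The wave peak is the place where newly made RNA was most abundant at a given release time, and it should lie further downstream at each later time if Pol II advances from the promoter as a single front. In shCtrl it did so at all 4 times in 0 of the 17 expressed members (95% Wilson interval up to 18.4%), whereas 20.4% of all expressed genes had this order. In shTHOC5 it did so in 5 of 17 (29.4%, interval 13.3% to 53.1%), against 43.7%. Among the 13 expressed members whose canonical transcript starts within 5 kb of the gene start the shTHOC5 share was 15.4%, and among the 9 with no peak at a limit of the window it was 44.4%. The 5 of 17 in order in shTHOC5 were ADAM10, ITGAE, ITGB1, ITGB3BP and TNC. TNC was not among the 13 because no canonical start was read for it, which lowers the share of 15.4%. Over all 98 members 2 were in order in shCtrl (2.04%, background 13.2%), CDH2 and SEMA3C, both low genes (3.45% of low members, background 6.88%), and 13 in shTHOC5 (13.3%, background 31.3%). Of these 13, 7 were low (12.1% of low members, background 22.0%). Among the 7 was CDH1, whose shTHOC5 peaks went from 108 to 111 kb, all beyond its annotated end. No member was in order in both series, so no rate ratio between the series could be formed from an orderly wave. Among all expressed genes 15.6% were in order in both.

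**Figure D2:**
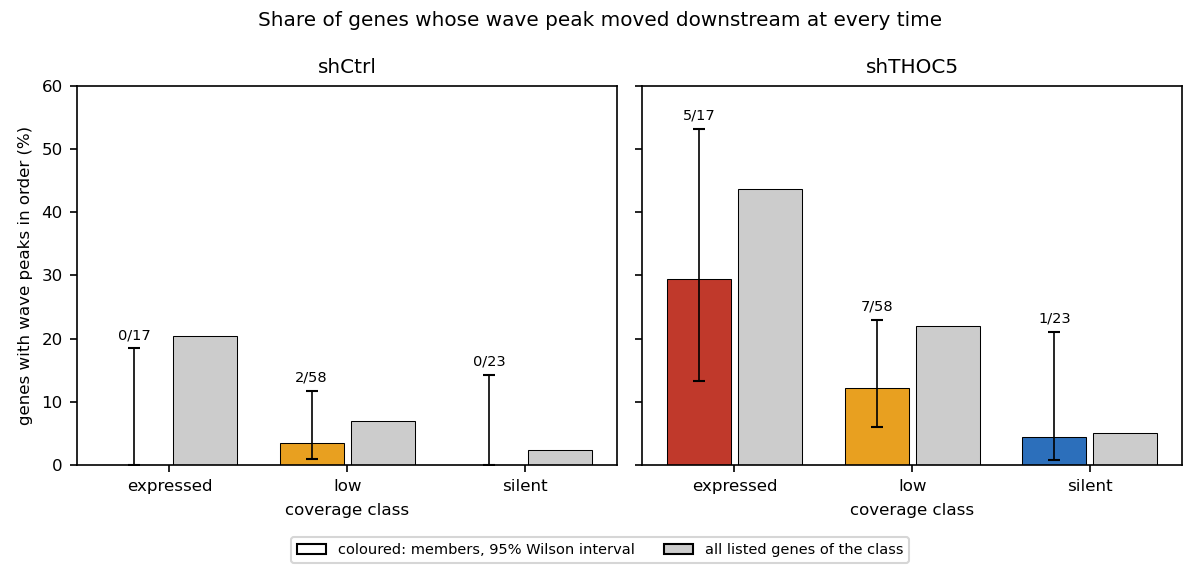
Percentage of genes whose wave peak lay further downstream at every later release time, for expressed, low and silent members (coloured bars, 95% Wilson intervals over genes, counts above) and for all listed genes of the same class (grey bars), by series. In shCtrl 0 of 17 expressed members were in order against 20.4% of expressed genes, and in shTHOC5 5 of 17 against 43.7%.

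The authors' filters kept no member in shCtrl, where they kept 4.92% of all listed genes, and 4 members in shTHOC5 (4.08%, background 10.0%), namely ITGAE, ITGB1, ITGB3BP and TNC. Their courses show what stood behind the marks. TNC (chromosome 9) had wave peaks at 2.64, 4.45, 4.92 and 7.79 kb from the gene start at 10, 20, 30 and 40 min in shTHOC5. In shCtrl, where its coverage was higher, its peaks lay at 39.8, 6.70, 43.9 and 9.90 kb. The shTHOC5 peaks advanced in short steps near the start, while those of shCtrl jumped between the first 10 kb and the middle of the gene.

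ITGB1 (chr10:32887273-33005792, minus strand) had its shTHOC5 peaks at 51.1, 53.0, 54.9 and 74.1 kb and its shCtrl peaks at 98.1, 51.2, 78.0 and 56.7 kb. No peak of either series lay near the start of the annotated gene. The canonical transcript, the main form of the gene in GENCODE, begins 47.6 kb downstream of the gene start that was used for the window. Counted from there, the shTHOC5 peaks lay at 3.55, 5.40, 7.39 and 26.5 kb.

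ITGB3BP (chr1:63440770-63593721, minus strand) showed the same layout. Its canonical start lies 70.5 kb inside the annotated gene. Its shTHOC5 peaks at 71.1, 71.3, 72.9 and 91.4 kb were 0.569, 0.842, 2.37 and 20.9 kb from that start. In shCtrl the peaks lay at 72.6, 71.0, 98.1 and 75.1 kb. In both genes all 8 wave peaks lay downstream of the canonical start, and the deposited shTHOC5 rates of 1.56 kb/min for ITGB1 and 1.89 kb/min for ITGB3BP include the distance to it.

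ITGAE (chr17:3714628-3801188, minus strand) passed the filters with peaks that hardly moved. They lay at 77.4, 77.1, 77.7 and 77.4 kb in shCtrl and at 77.2, 78.2, 79.1 and 80.0 kb in shTHOC5, all 8 within 2.85 kb and near the end of a gene of 86.6 kb. The gene HASPIN, which encodes a histone kinase, lies inside ITGAE on the other strand and covered the peak position in 2 of the 8 libraries. The deposited rate of ITGAE was 1.59 kb/min in shCtrl and 1.66 kb/min in shTHOC5, while the slope over the 4 times alone was 0.006 and 0.092 kb/min.

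**Figure D3:**
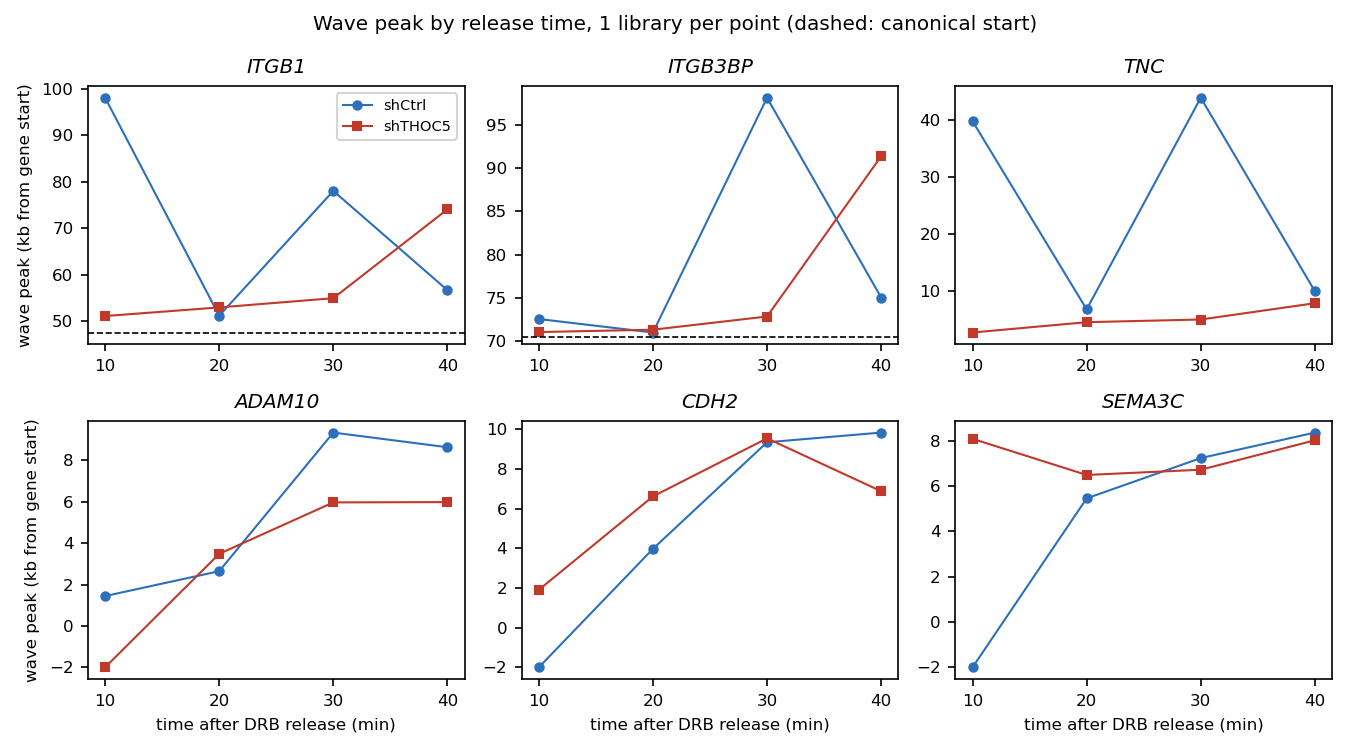
Wave peak position in kb from the gene start (y axis) against release time in min (x axis) for 6 members in shCtrl (blue circles) and shTHOC5 (red squares), 1 library per point, with a dashed line at the canonical start where it lies over 5 kb inside the gene. The shTHOC5 peaks of ITGB1 and TNC moved downstream at each time, from 51.1 to 74.1 kb and from 2.64 to 7.79 kb, and the shCtrl peaks of CDH2 rose to 9.85 kb.

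The 2 members in order in shCtrl were both low there. CDH2 had shCtrl peaks at the first position of the window, 4.0 kb, 9.36 kb and 9.85 kb, and shTHOC5 peaks at 1.91, 6.62, 9.55 and 6.89 kb. SEMA3C had shCtrl peaks at the first position, 5.45, 7.23 and 8.35 kb, and shTHOC5 peaks at 8.08, 6.48, 6.71 and 8.01 kb. In both genes the shTHOC5 course, at 104 and 114 rpm, broke the order at 1 step only. ADAM10, in order in shTHOC5, had peaks at the first position, 3.49, 5.97 and 5.98 kb there and at 1.44, 2.65, 9.35 and 8.64 kb in shCtrl, where only the last step went back.

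The wave peak lay nearer the start in shTHOC5 than in shCtrl in 11 of 17 expressed members at 10 min (64.7%, background 49.1%), 8 at 20 min (47.1%, background 50.7%), 10 at 30 min (58.8%, background 57.8%) and 7 at 40 min (41.2%, background 53.4%). It lay farther in 3, 5, 4 and 7 members, against 13.0%, 24.5%, 25.6% and 32.9% of expressed genes. The Wilson interval of each nearer share held the background, for example 41.3% to 82.7% at 10 min. The shifts at 40 min were largest upstream in COL18A1 (112 kb in shCtrl and 86.5 kb in shTHOC5), LAMB1 (107 and 92.4 kb) and COL4A2 (66.2 and 63.4 kb). They were largest downstream in LAMC1 (8.50 and 114 kb), VCAN (4.27 and 31.0 kb) and ITGB1 (56.7 and 74.1 kb).

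In several expressed members the wave peak did not lie in the member at all. The window runs to 120 kb, while 37 of the 98 members (37.8%, against 57.9% of listed genes) and 11 of the 17 expressed ones are narrower than that. At each time 5 of 17 expressed members had a peak beyond the annotated end in shCtrl, against 18.4%, 19.6%, 21.1% and 21.1% of expressed genes at 10, 20, 30 and 40 min, and 4 of 17 in shTHOC5, against 16.2%, 17.8%, 19.1% and 19.9%. In 3 expressed members all 8 peaks lay beyond the annotated end (17.6%, background 12.1%). FN1, 75.6 kb wide, had 7 of its peaks at the very last position of the window and the other at 118 kb, inside ATIC, a gene of purine synthesis on the opposite strand. LAMC3, 85.3 kb wide, had all 8 at the last position, inside the nucleoporin gene NUP214. SEMA4B, 69.1 kb wide, had all 8 between 106 and 110 kb, where NGRN lies.

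LAMB1 and COL18A1 had such peaks in some libraries. LAMB1, 79.4 kb wide, had 7 of 8 peaks beyond its end, at 92.4 to 110 kb, inside DLD, a subunit gene of pyruvate dehydrogenase that is read on the opposite strand. COL18A1 had its 4 shCtrl peaks at 112 to 120 kb, inside the folate carrier gene SLC19A1, and its 4 shTHOC5 peaks inside its own introns at 83.0, 5.09, 6.72 and 86.5 kb. ADAM9 had all 8 peaks at the first position, 2 kb before its start, where the neighbouring TM2D2 is read the other way. The share of the neighbours in the coverage of these members was not tested.

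Neighbouring genes stood in the window of many expressed members, about as often as in other expressed genes. Of the 16 expressed members whose GENCODE width equals the listed width, 8 had another protein-coding gene over at least 10% of the window (50.0%, against 46.9% of expressed genes). Among low members this held for 9 of 57 (15.8%, background 26.1%) and among silent members for 1 of 22 (4.55%, background 17.1%). It was highest in ADAM17, with 48.6% of the window, ITGB3BP with 42.3% and SEMA4B with 41.5%. A canonical start over 5 kb inside the annotated gene occurred in 3 of 16 expressed (18.8%, background 18.3%), 5 of 57 low (8.77%, background 22.4%) and 3 of 22 silent members (13.6%, background 28.3%). The 3 expressed ones were ITGB1, ITGB3BP and SEMA4B.

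**Figure D4:**
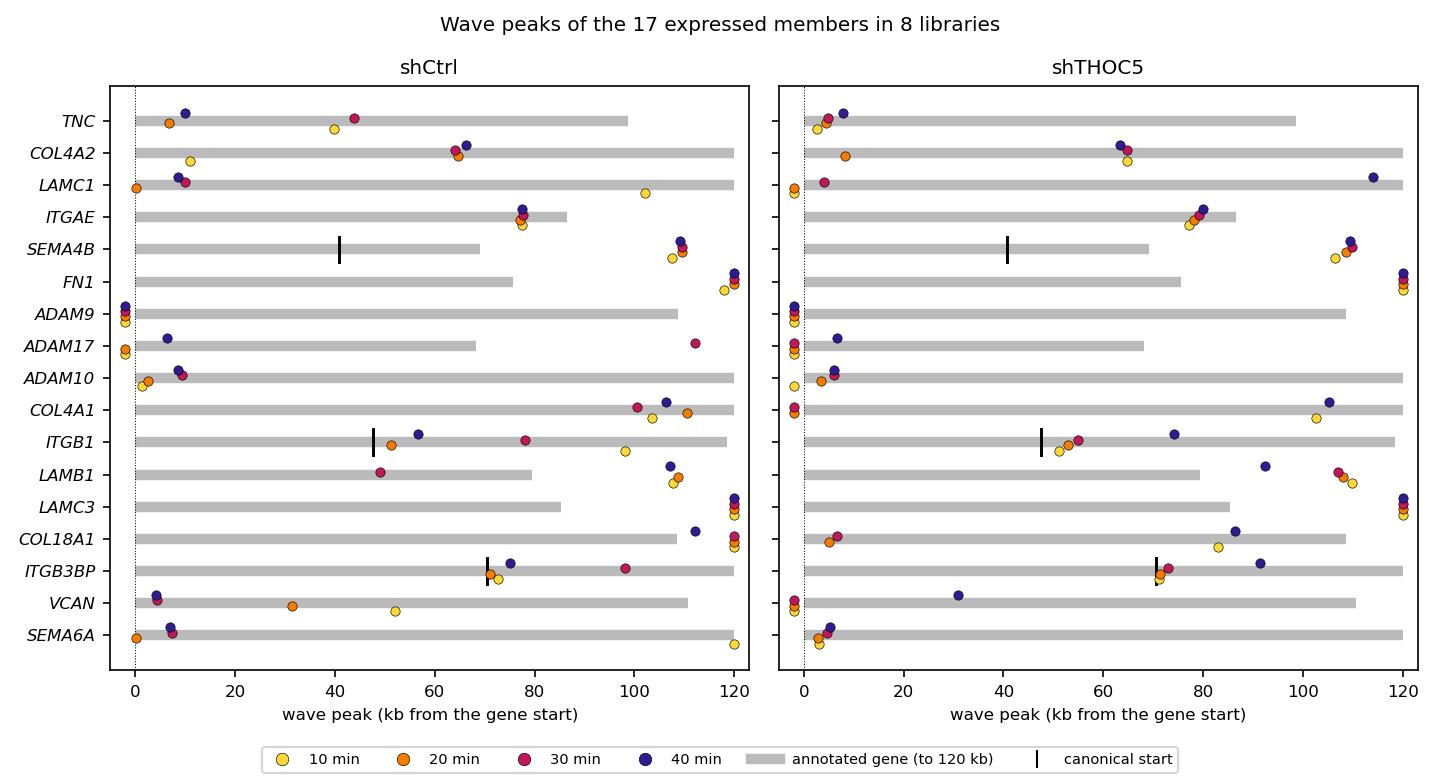
Wave peaks of the 17 expressed members in kb from the gene start (x axis), at 10, 20, 30 and 40 min (yellow, orange, magenta and dark blue), in shCtrl (left) and shTHOC5 (right), with the annotated gene as a grey bar and a canonical start over 5 kb inside it as a black tick. The peaks of FN1, LAMC3, SEMA4B and most of LAMB1 lie to the right of the grey bar, and those of ITGB1 and ITGB3BP lie to the right of the tick.

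The remaining expressed members moved between distant places. COL4A2, the longest expressed member at 207 kb, had 6 of 8 peaks between 63.4 and 66.2 kb, in an intron, and the others at 11.0 kb (shCtrl, 10 min) and 8.24 kb (shTHOC5, 20 min). COL4A1 had its 4 shCtrl peaks at 101 to 110 kb, and in shTHOC5 peaks at 103 kb and 105 kb at 10 and 40 min. At 20 and 30 min its shTHOC5 peak was the first position searched, which lies inside the divergent COL4A2. The peaks of this pair of genes thus fell at a few places again and again and did not advance with time.

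LAMC1 had shCtrl peaks at 102, 0.183, 10.1 and 8.50 kb, and in shTHOC5 peaks at the first position at 10 and 20 min, then at 4.02 and 114 kb. SEMA6A had shCtrl peaks at the last position, 0.212, 7.28 and 7.03 kb, and shTHOC5 peaks at 3.00, 2.90, 4.70 and 5.26 kb. VCAN had shCtrl peaks at 52.1, 31.4, 4.40 and 4.27 kb, against the direction of transcription, and in shTHOC5 peaks at the first position at 10, 20 and 30 min and at 31.0 kb at 40 min. ADAM17 started from the first position in both series and stayed there through 20 min in shCtrl and 30 min in shTHOC5. Its later peaks lay at 112 kb, inside CPSF3, and 6.39 kb in shCtrl and at 6.60 kb in shTHOC5. In SEMA6A, VCAN and LAMC1 the 10 min peak lay far downstream in shCtrl and near the start in shTHOC5.

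Counted over the expressed members and the 4 times, 6 of 68 shCtrl peaks lay at the first position of the window (8.82%) and 15 of 68 in shTHOC5 (22.1%). Introns held 30 of 68 (44.1%) and 33 of 68 (48.5%). Peaks in exons numbered 7 in shCtrl and 0 in shTHOC5, with the 4 peaks of TNC in each series not assigned. These pooled counts take each gene 4 times, and exons and introns were not read for the other listed genes. They have no background and are no result about the members. At 10 min the first position held 2 of 17 expressed members in shCtrl (11.8%, background 36.3%) and 5 of 17 in shTHOC5 (29.4%, background 54.2%). At 20 min it held 2 of 17 (11.8%, background 25.5%) and 5 of 17 (29.4%, background 28.2%). At 30 min it held 1 of 17 (5.88%, background 15.5%) and 4 of 17 (23.5%, background 18.9%). At 40 min it held 1 of 17 in each series (5.88%, background 11.7% in shCtrl and 11.4% in shTHOC5). The shares of the expressed members lay below the background at every time in shCtrl, and at 10 and 40 min but not at 20 and 30 min in shTHOC5. Among the 58 low members the first position held 14, 14, 15 and 15 in shCtrl at the 4 times, against 34.0%, 30.3%, 23.1% and 20.3% of low genes, shares of 24.1% and 25.9%. In shTHOC5 it held 19, 22, 13 and 8 of them. These were 32.8%, 37.9%, 22.4% and 13.8%, against 44.6%, 32.9%, 24.8% and 18.8% of low genes.

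The deposited rates of members with fixed peaks follow from the position of the peak. The reason is that the fit includes a point at 0 min at the start of the window, 2 kb before the gene start. LAMC3, with all peaks at the last position, had 2.44 kb/min in both series, and FN1 had 2.46 and 2.44 kb/min. ADAM9, with all peaks at the first position, had 2.0e-05 kb/min in both. Over the 4 times alone the slope of LAMC3 and ADAM9 was 0 in both series, and that of FN1 was 0.06 and 0 kb/min. The median deposited rate of the 17 expressed members was 1.59 kb/min in shCtrl and 1.31 kb/min in shTHOC5, against 0.368 and 0.301 kb/min over all expressed genes. Members with peaks close to the start had far lower rates, such as ADAM10 with 0.292 and 0.239 kb/min and TNC with 0.279 and 0.219 kb/min. A rate below 0 was deposited for 3 of 17 expressed members in shCtrl (17.6%, background 6.18%), LAMC1, SEMA6A and VCAN, and for 0 of 17 in shTHOC5 (background 1.65%).

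Silent members carried wave peaks and rates too. The spread of the 4 peaks of a gene, from the nearest to the farthest, had a median of 99.7 kb in shCtrl and 69.9 kb in shTHOC5 over the 23 silent members, most of the window. Over the 17 expressed members it was 27.1 and 8.60 kb, and over the 58 low members 58.1 and 20.8 kb. All silent genes showed 85.7 and 69.4 kb and all expressed genes 9.30 and 7.67 kb. In each of the 3 classes of members the spread was smaller in shTHOC5 than in shCtrl. CDH11, a cadherin of mesenchyme at 2.99 and 3.21 rpm, used the whole window of 122 kb in both series. Order was rare, with 0 of 23 silent members in shCtrl (background 2.39%) and 1 in shTHOC5, COL6A5 (4.35%, background 5.01%), and 4 and 2 of 23 had rates below 0 (background 13.4% and 10.5%).

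A gene of low coverage can also show fixed peaks. In 13 of the 98 members all 8 peaks lay within 5 kb of each other (13.3%, background 15.8%). Of these, 5 were expressed (29.4% of expressed members, background 17.8%, namely ADAM9, FN1, ITGAE, LAMC3 and SEMA4B), and the silent ITGA11 had all 8 at the last position with 5.74 and 7.75 rpm. LTBP2 and ITGA2 also had all 8 at the last position, and PCDH17, THBS4, COL4A6 and ADAM29 had all 8 at the first. In shCtrl all 4 peaks at the last position occurred in 1 of 17 expressed (5.88%, background 2.87%), 2 of 58 low (3.45%, background 3.09%) and 1 of 23 silent members (4.35%, background 0.955%). All 4 at the first position occurred in 1 of 17 (5.88%, background 9.75%), 4 of 58 (6.9%, background 11.5%) and 0 of 23 (background 1.91%). In shTHOC5 the last position held all 4 in 2 of 17 (11.8%, background 2.44%), 2 of 58 (3.45%, background 3.79%) and 1 of 23 (4.35%, background 1.19%), and the first position in 1 of 17 (5.88%, background 10.8%), 6 of 58 (10.3%, background 14.1%) and 0 of 23 (background 5.01%). PCDH17 thus had a log2 coverage ratio of 2.51 between the series without any peak inside the gene. ITGA1 stood apart, with all 8 peaks between 13.0 and 14.8 kb in the gene body at 88.1 and 87.3 rpm.

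Genes that work with these members but do not carry their names were listed in 6 sets. Of 40 adaptors of integrin adhesions 21 were listed and 12 of them were expressed, where 50.0% of all listed genes were. Of the 21, 2 were in order in shCtrl, where 13.2% of all listed genes were, and 11 in shTHOC5, where 31.3% were. VCL, which encodes the focal adhesion protein vinculin, had 924 and 693 rpm, peaks at 5.92, 7.67, 9.56 and 18.1 kb in shCtrl and at 5.48, 7.19, 8.15 and 9.57 kb in shTHOC5. FERMT2, a kindlin that binds integrin beta tails, had peaks at 8.07, 8.20, 10.3 and 12.7 kb in shCtrl and at 3.47, 7.07, 8.68 and 11.8 kb in shTHOC5. The filters kept both genes in both series. In both, the shTHOC5 peak lay nearer the start at every time. Of 21 cadherin adaptors 8 were listed, 6 of them expressed, with 1 in order in shCtrl and 4 in shTHOC5 against the same shares of all listed genes, among them CTNNB1, which encodes beta-catenin, with 844 and 652 rpm.

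Past 1.5-fold, 2 integrin adaptors were higher and 1 lower in shTHOC5, and 3 cadherin adaptors were higher and 0 lower. Of 53 adhesion molecules outside the names 15 were listed, 5 higher and 4 lower, and of 46 proteoglycans and matrix receptors 20 were listed, 4 higher and 3 lower. Of 31 collagen-modifying and crosslinking enzymes 14 were listed, 3 higher and 1 lower. These counts include genes of any coverage. Over all listed genes 27.1% were higher and 14.5% lower, and over low genes alone 45.8% and 16.1%. Of 11 semaphorin receptors 4 were listed, with 2 higher and 1 lower, and none was expressed in both series. NRP1, a receptor of the secreted SEMA3 ligands, had 46.8 rpm in shCtrl and 155 rpm in shTHOC5, and PLXNA2 had 210 and 50.0 rpm. CD44, the hyaluronan receptor, had 442 and 207 rpm, and PLOD2, which hydroxylates collagen lysines, had 195 and 354 rpm.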

How the data were processed

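DRB/TTchem-seq of 8 HEK293 libraries (shCtrl and shTHOC5 at 10, 20, 30 and 40 min) was used. Nanopore and ChIP-seq samples were not used here. The authors sequenced 4SU-labelled RNA, normalized coverage to sequencing depth and called wave peaks with a published pipeline. The submitters' processing notes name GRCh38 among the builds and minimap2, CASAVA 1.8.2, Bowtie2 2.3.4.1 and deepTools 2.0. The aligner of these libraries is not given in the sources used here. The deposited coverage column is named for RPKM, but its values sum to 1000000 and were read as RPM, 1 value per series. How the libraries were combined is not given in the sources used here, so depth is unknown. Fixed classes and folds (100 rpm, 10 rpm, 1.5-fold, pseudocount 1 rpm) stand in for tests, since there are no replicates.

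Positions were converted to kb from the gene start by subtracting 2 kb. A least-squares slope with a point at 0 min, set 2 kb before the gene start, returned every deposited rate. Symbols were found for 4590 of 4592 identifiers. GENCODE release 44 gave coordinates, exons and canonical starts, and 95 of 98 members had the listed width. COL6A5, ITGAV and TNC did not, and no exon or canonical start was read for them. RefSeq gave promoters, of which 67 of the 76 found for members lay within 1 kb of the gene start. Named members are those kept by the filters, the highest of each family in shCtrl, the 5 largest rises and falls with a mean of at least 100 rpm, the 3 largest shifts at 40 min in each direction and the 3 lowest in coverage. Others were chosen after their values were seen. The members and lists were chosen with earlier results of these data known. Functions were tested on simulated data. Python 3.11.15, numpy 2.4.6, pandas 2.3.3, scipy 1.17.1 and matplotlib 3.10.9 were used.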

Additional observations from a re-analysis of the deposited data

How the results depend on the processing

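No paired analysis was possible because no hairpin has replicates: peaks were set side by side at the same release time, but the 4 times are not replicates of a condition and no test was made. Of 56 alternatives 42 left the value within its interval or, for counts, within 1.5 times, and 14 moved it. With 50 rpm as the limit 37.8% of members passed in shCtrl and 34.7% in shTHOC5, and with 200 rpm 10.2% passed in shTHOC5. The median log2 coverage ratio was 0.15 without a filter. Without a filter 34 members were higher and 19 lower past 1.5-fold. At 2-fold 2 were lower. With a mean of at least 100 rpm 2 were higher, and with 100 rpm in both series 1 was. In order in shTHOC5 were 13.3% of all members. Where both peaks lay inside the gene, the shTHOC5 peak was nearer the start in 85.7% of 7 members at 10 min. With only shifts over 5 kb counted, it was nearer in 35.3% at 10 min, 23.5% at 20 min and 11.8% at 40 min. These moves follow from the members or shifts that each choice counts. The median ratio of members with at least 200 rpm in both series was 0.11, against -0.15, and its sign is therefore not fixed.

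Leaving out 1 release time brought 0 to 2 expressed members into order in shCtrl and 6 to 8 in shTHOC5. No expressed member was in order in both series, so the planned rate ratio and the restriction to such members gave no value. Without the 40 min time ADAM10 and SEMA4B were in order in both, with rate ratios of 0.834 and 1.00, and without the 10 min time no expressed member was. The ratio of SEMA4B cannot describe elongation. Its peaks stood at 106 to 110 kb in both series, beyond its annotated end, and the fit with a point at 0 min takes its rate from that position. Alternatives on the mean, on both series, on window limits, on canonical starts, on the size of a shift, on the limits of the classes and on centring the counts were chosen after seeing the data. Depth is unknown, so the value of 1 read is not known, which limits what low coverage can show.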
